A study of Mus musculus with 18 samples.

Results

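The MYC, MAX and MXD network is a family of transcription factors of which 10 genes were examined: Myc, Mycn, Mycl1, Max, Mxd1, Mxd3, Mxd4, Mxi1, Mnt and Mga. They were taken by gene name from a count table of 37310 mouse genes, where each name matched 1 row. All 10 had enough reads to be tested, among 15433 tested genes. The names follow the table: Mycl1 is now called Mycl, and Mxi1 is also known as Mxd2.

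RNA was sequenced from primary cortical neurons of mice, wild type (WT) or knockout for Fmr1 (Fmr1-/-, called KO here). Fmr1 encodes the RNA-binding protein FMRP, whose absence causes fragile X syndrome. After 7 days in culture both genotypes received either DMSO, the vehicle, or JQ1, an inhibitor of the acetyl-lysine binding bromodomains of BET proteins, for 24 h. Each of the 4 combinations of genotype and treatment had 3 libraries, and 6 further samples that received THZ1 were not analysed here. The strain, sex and age of the mice, the JQ1 dose and whether the 3 libraries of a group came from separate cultures are not stated in the labels, so p-values measure the spread between these libraries.

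MYC, MYCN and the L-MYC protein bind DNA as dimers with MAX, mostly at the E-box sequence CACGTG, and raise transcription of genes for ribosome assembly, metabolism and the cell cycle. The MXD proteins, MXI1, MNT and MGA also pair with MAX and occupy the same sequence but repress, the MXD proteins, MXI1 and MNT through the SIN3 histone deacetylase complex and MGA through a Polycomb complex. In neural progenitors Mycn is the family member best known for driving division, while MXD genes are associated with cells leaving the cycle. In many cancer cells BET inhibitors are known for lowering MYC transcription, so the comparison of JQ1 with DMSO asks how far that holds for each network gene in neurons.

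The E-box itself was sought in the promoters of the network genes, because members of the network can bind each other's genes. RefSeq promoters on GRCm38.p6, each 300 bases long with 250 bases before and 50 after the start site, were available for the 9 genes other than Myc. The string CACGTG, which reads the same on both strands, occurred in the windows of Max, Mxd4 and Mnt and in none of the windows of Mycn, Mycl1, Mxd1, Mxd3, Mxi1 and Mga. The share of all 32851 RefSeq promoters, of 27025 genes, that held it was 7.15%. This share counts promoters and not genes, and among the network genes Mxi1 had several windows. Shown here are the 3 network promoters with a match, 5′ to 3′ on the gene's strand and with the E-box in capitals, to place the match against the start site. The Max stretch (chr12:76962246-76962498, minus strand) ends with the E-box, which begins 3 bases before the start site. In Mxd4 (chr5:34187711-34187960, minus strand) the E-box begins 219 bases before the start site. In Mnt (chr11:74830674-74830923, plus strand) it begins 123 bases before the start site.
Max: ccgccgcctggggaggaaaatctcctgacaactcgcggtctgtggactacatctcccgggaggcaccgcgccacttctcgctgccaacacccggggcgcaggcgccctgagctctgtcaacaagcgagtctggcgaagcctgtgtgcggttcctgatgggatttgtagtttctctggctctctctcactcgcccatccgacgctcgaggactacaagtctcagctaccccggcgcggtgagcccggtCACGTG
Mxd4: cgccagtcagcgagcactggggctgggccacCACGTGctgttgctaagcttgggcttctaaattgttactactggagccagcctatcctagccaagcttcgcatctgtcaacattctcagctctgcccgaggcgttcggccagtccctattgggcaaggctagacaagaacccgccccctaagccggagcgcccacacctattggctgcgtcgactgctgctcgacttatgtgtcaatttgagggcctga
Mnt: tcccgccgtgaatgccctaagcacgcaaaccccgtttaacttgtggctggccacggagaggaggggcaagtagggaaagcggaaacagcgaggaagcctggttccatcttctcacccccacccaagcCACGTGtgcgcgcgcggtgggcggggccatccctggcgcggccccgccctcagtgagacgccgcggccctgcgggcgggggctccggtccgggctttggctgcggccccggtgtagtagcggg
A match describes the letters of the window and not binding. The RNA of these 3 genes is given below beside that of the others. None of them passed the test of JQ1 against DMSO in WT neurons, where 55.1% of all tested genes did. Mnt alone of the 3 passed in KO neurons, where 57.1% did, a call lost in some of the fits given below. A relation between the match and the JQ1 response was not tested.

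Library totals ran from 21643592 to 134110850 gene counts, and levels are given as CPM, read counts scaled to a common library size, with library sizes set by TMM, a method that centres each library on the bulk of its genes. Fmr1 was at 120.9 ± 2.89 CPM in WT and 24.4 ± 4.40 CPM in KO neurons in DMSO (SD, n = 3), with the KO libraries below the WT libraries in JQ1 as well. All 10 neuron markers searched were present and summed to between 5420 and 6470 CPM per library, against 5.98 to 9.71 CPM for 6 microglia markers. KO_DMSO replicate 3 stood apart from the other libraries of its group (chi-square per degree of freedom 40.1 and 41.0, against 7.83 between the other two), and KO counts are therefore also given without both KO libraries numbered 3. Every log2 change below is relative to the middle of all genes. Scaling to the spiked-in ERCC RNA moved that middle from -0.0043 to -0.63 for JQ1 in WT, from 0.0014 to 0.0665 for JQ1 in KO, from -0.015 to -0.82 for KO over WT in DMSO and from -0.0045 to -0.12 for KO over WT in JQ1. Changes named as rising or falling are thus shifts against other genes. The ERCC share of all counts itself ran from 0.168 to 0.348% within KO_DMSO, and SEs under that scaling are wider, as given for Myc below. In bulk RNA, fewer cells of a type and less RNA per cell cannot be told apart.

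The 3 MYC genes and Max were the most abundant of the network per length, together with Mnt. Divided by merged exon length, Mycn stood at 30.3 ± 0.771 CPM per kb in WT neurons in DMSO, followed by Mycl1 at 26.2 ± 1.08, Max at 18.2 ± 0.618, Myc at 16.1 ± 0.536 and Mnt at 14.3 ± 0.599 CPM per kb (SD, n = 3). Mxd4 followed at 9.93 ± 0.271 CPM per kb, Mga at 4.42 ± 0.522, Mxi1 at 3.53 ± 0.163, Mxd1 at 2.19 ± 0.0940 and Mxd3 at 1.59 ± 0.378. In that group no gene's libraries overlapped those of its neighbour in the order. In KO neurons in DMSO the libraries of Mycn and Mycl1 overlapped, as did those of Mnt and Myc and those of Mxi1 and Mga. In JQ1 Mnt stood above Myc, with Mnt at 13.6 ± 0.185 and Myc at 13.0 ± 0.398 CPM per kb in WT, where their libraries overlapped, and Mnt at 15.1 ± 0.702 and Myc at 13.2 ± 0.662 CPM per kb in KO, where they did not. Mnt had stood below Myc in WT in DMSO, while in KO in DMSO both were at 16.7 CPM per kb. Myc made up 21.6 to 22.8% of the summed per-length level of the 3 MYC genes in WT neurons in DMSO, Mycn 41.5 to 42.1% and Mycl1 35.5 to 36.4%. These orders and shares rest on the merged exon lengths. In plain CPM in that group, Mycl1 (105.9) stood above Mycn (99.9), and Myc (43.7) below Mxd4 (84.2), Mga (67.8) and Mnt (66.1).

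**Figure D1:**
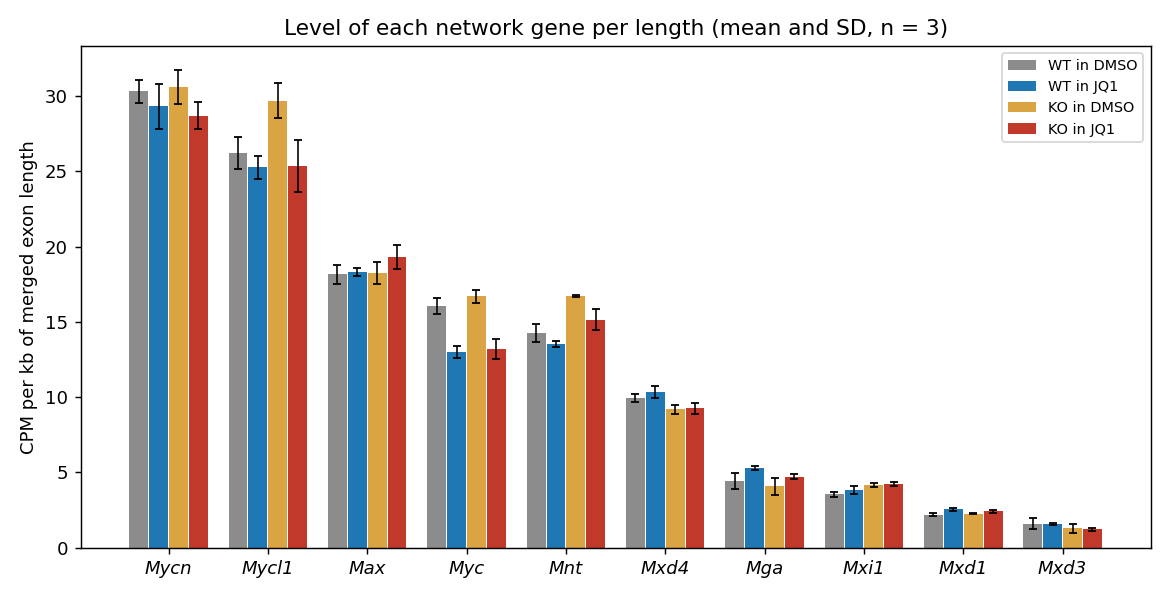
Level of each network gene in CPM per kb of merged exon length (vertical axis), for the 4 groups (bars: mean, error bars: SD, n = 3 libraries). Mycn and Mycl1 are the tallest in every group, from 25.3 to 30.6 CPM per kb, and Mxd3 the lowest, from 1.22 to 1.59 CPM per kb.

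Under JQ1, Myc fell in both genotypes, Mycl1 and Mnt fell in KO, and Mxd1 and Mga rose in WT relative to other genes. The latter pair turned negative under spike-in scaling, at -0.42 (SE 0.306) and -0.36 (SE 0.305), where neither passed the test. By edgeR's quasi-likelihood F test, with p-values adjusted over all tested genes by the Benjamini-Hochberg method, 3 of the 10 network genes passed an adjusted p of 0.05 in WT, 2 higher and 1 lower, where 55.1% of all tested genes did, 25.9% higher and 29.3% lower. In KO neurons 3 of 10 passed, all lower, where 57.1% of all genes did, 27.7% higher and 29.4% lower, and without both KO libraries numbered 3 the KO count was 2. Read against those shares, the counts of called network genes are not above the background. Their median absolute log2 change was 0.068 in WT and 0.092 in KO, beside 0.26 in both genotypes for all tested genes. The 2 JQ1 responses rest on different control libraries.

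Myc (ENSMUSG00000022346), the founding member, read 45.1, 42.2 and 43.8 CPM in the WT libraries in DMSO and 36.6, 34.5 and 34.9 CPM in those in JQ1. In KO it read 46.7, 44.7 and 44.8 CPM in DMSO and 34.6, 37.9 and 35.0 CPM in JQ1. Every JQ1 library lay below every DMSO library of both genotypes, and Myc RNA remained at over 30 CPM throughout. The log2 change was -0.31 in WT (SE 0.0510, 95% interval -0.42 to -0.20, edgeR adjusted p = 0.000162) and -0.34 in KO (SE 0.0501, interval -0.45 to -0.23, adjusted p = 5.6e-05), percent changes of -19.1 and -20.9. In size the WT change ranked at the 56.6th percentile of all tested genes and the KO change at the 59.3rd. Leaving out any 1 of the libraries compared kept the call in both genotypes, with adjusted p from 0.000484 to 0.00138 in WT and from 6.58e-05 to 0.000386 in KO. Scaled to spike-in RNA, the change was -0.94 in WT (adjusted p = 0.00929) and -0.27 in KO (adjusted p = 0.742), with SEs of 0.306 and 0.303 beside the 0.0510 and 0.0501 above.

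Mycn (ENSMUSG00000037169), the progenitor-type MYC gene, read 103, 99.8 and 97.5 CPM in WT in DMSO and 101, 91.4 and 97.4 CPM in JQ1. The KO libraries read 97.3, 101 and 105 CPM in DMSO and 91.4, 95.3 and 97.1 CPM in JQ1. The WT libraries of the treatments overlapped and the KO libraries were narrowly apart. The log2 changes of -0.050 in WT (SE 0.0482, interval -0.15 to 0.053, edgeR adjusted p = 0.401) and -0.094 in KO (SE 0.0478, interval -0.20 to 0.0086, adjusted p = 0.108) did not pass the test. These intervals exclude for Mycn, relative to other genes, a decrease as large as the estimate for Myc in the same genotype.

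Mycl1 (ENSMUSG00000028654), which encodes L-MYC, read 110, 105 and 102 CPM in WT in DMSO and 105, 102 and 98.8 CPM in JQ1, with overlapping libraries. In KO it read 120, 125 and 115 CPM in DMSO and 96.9, 110 and 99.9 CPM in JQ1, with every JQ1 library below every DMSO library. Its log2 change was -0.052 in WT (SE 0.0548, edgeR adjusted p = 0.438) and -0.23 in KO (SE 0.0543, interval -0.34 to -0.11, adjusted p = 0.00251). The difference between the genotypes was itself -0.18 (SE 0.0771, interval -0.34 to -0.010), with an unadjusted p of 0.0388 and an edgeR adjusted p of 0.9999, so a genotype difference in the Mycl1 response did not pass the test. Under spike-in scaling the KO change was -0.17 (adjusted p = 0.849) and the difference between genotypes turned to 0.52.

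Max (ENSMUSG00000059436), the shared partner of all the others, read 65.5, 67.5 and 63.1 CPM in WT in DMSO and 65.6, 66.9 and 65.0 CPM in JQ1. KO libraries read 67.9, 66.5 and 62.7 CPM in DMSO and 67.0, 69.0 and 72.5 CPM in JQ1. The treatments overlapped in both genotypes. The log2 change was 0.011 in WT (SE 0.0466, interval -0.089 to 0.11, edgeR adjusted p = 0.857) and 0.081 in KO (SE 0.0460, interval -0.018 to 0.18, adjusted p = 0.149), and the WT value turned to -0.63 under spike-in scaling.

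Among the MAX partners that repress, Mxd1 (ENSMUSG00000001156), the first of the MXD proteins, read 16.1, 15.6 and 14.8 CPM in WT in DMSO and 17.4, 18.8 and 18.0 CPM in JQ1. It read 15.7, 16.2 and 16.1 CPM in KO in DMSO and 16.5, 18.1 and 16.5 CPM in JQ1. The JQ1 libraries lay above the DMSO libraries in both genotypes. Mxd1 rose in WT by 0.22 on the log2 scale (SE 0.0629, interval 0.086 to 0.36, edgeR adjusted p = 0.00819), a value that turned to -0.42 under spike-in scaling, while the KO change of 0.090 (SE 0.0614, adjusted p = 0.224) did not pass. The difference between genotypes, -0.13 (SE 0.0879, interval -0.32 to 0.058), did not pass either, with an adjusted p of 0.9999.

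Mga (ENSMUSG00000033943) encodes the largest MAX partner, which also carries a T-box domain. It read 63.7, 62.6 and 77.0 CPM in WT in DMSO and 82.3, 79.3 and 82.0 CPM in JQ1. In KO it read 61.7, 71.7 and 53.8 CPM in DMSO and 73.7, 74.2 and 69.1 CPM in JQ1. DMSO libraries were more scattered than JQ1 libraries in both genotypes, and the treatments overlapped only in KO. Mga rose in WT by 0.26 (SE 0.0912, interval 0.065 to 0.46, edgeR adjusted p = 0.0253), turning to -0.36 under spike-in scaling. The KO change was 0.21 (SE 0.0905, interval 0.020 to 0.41, adjusted p = 0.0568), and it passed with the replicate number as a block within genotype (0.22, adjusted p = 0.00711) or without KO_DMSO replicate 2 (0.32, adjusted p = 0.00552). The WT call was lost without WT_DMSO replicate 1 (adjusted p = 0.0890), WT_DMSO replicate 2 (0.106) or WT_JQ1 replicate 3 (0.0532).

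Mnt (ENSMUSG00000000282), the most widely expressed MYC antagonist, read 64.8, 69.3 and 64.3 CPM in WT in DMSO and 63.2, 63.2 and 61.7 CPM in JQ1. For KO the values were 77.6, 77.7 and 76.9 CPM in DMSO and 72.6, 71.1 and 66.4 CPM in JQ1. JQ1 libraries lay below DMSO libraries in both genotypes. The change was -0.076 in WT (SE 0.0454, edgeR adjusted p = 0.171), and Mnt fell in KO by 0.14 on the log2 scale (SE 0.0446, interval -0.24 to -0.048, adjusted p = 0.0130). The KO call was lost without KO_JQ1 replicate 3 (-0.11, adjusted p = 0.0586), without both KO libraries numbered 3 (-0.11, adjusted p = 0.0681) and under spike-in scaling (-0.088, adjusted p = 0.929).

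The remaining MXD genes passed no test of JQ1. Mxd4 (ENSMUSG00000037235), the most abundant MXD gene per length in these cells, read 86.9, 83.4 and 82.5 CPM in WT in DMSO and 89.7, 84.0 and 90.1 CPM in JQ1, a log2 change of 0.061 (SE 0.0467, edgeR adjusted p = 0.288). In KO it read 79.0, 79.8 and 74.9 CPM in DMSO and 77.2, 82.0 and 76.5 CPM in JQ1, a log2 change of 0.013 (SE 0.0464, adjusted p = 0.825). The treatments overlapped in both genotypes. Mxi1 (ENSMUSG00000025025) read 23.1, 24.0 and 25.3 CPM in WT in DMSO and 25.3, 25.1 and 28.1 CPM in JQ1, and 28.0, 28.1 and 29.4 CPM in KO in DMSO and 28.3, 28.4 and 29.8 CPM in JQ1. Its changes of 0.11 in WT (SE 0.0589, edgeR adjusted p = 0.137) and 0.014 in KO (SE 0.0571, adjusted p = 0.846) came from overlapping libraries.

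Mxd3 (ENSMUSG00000021485), an MXD gene associated with dividing cells, was the least abundant member per length in every group, and the most variable in all groups but WT in JQ1 (coefficient of variation 23.7% in WT in DMSO and 4.96% in WT in JQ1). It read 3.46, 3.08 and 4.79 CPM in WT in DMSO, 3.71, 3.55 and 3.92 CPM in WT in JQ1, 2.49, 2.86 and 3.77 CPM in KO in DMSO and 2.64, 2.85 and 3.17 CPM in KO in JQ1. The JQ1 changes of -0.033 in WT (interval -0.39 to 0.33) and -0.079 in KO (interval -0.44 to 0.28) have the widest intervals of the 10 genes. Mxd3 overlaps Prelid1 on the opposite strand, and no source used here gives the strandedness of the libraries, so its level is uncertain.

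**Figure D2:**
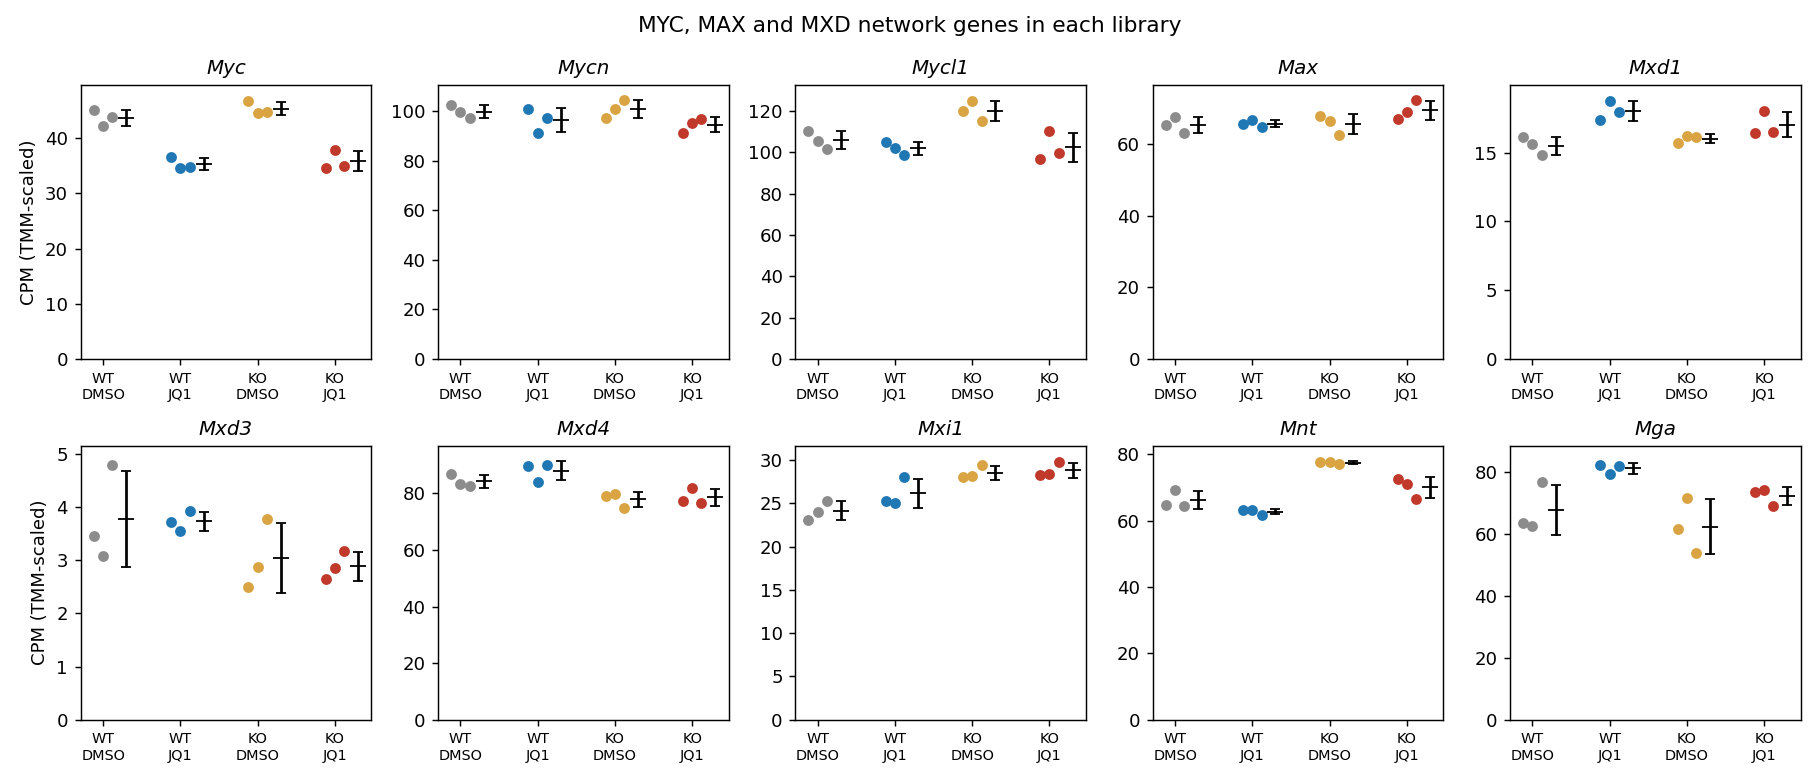
CPM of each network gene in each of the 12 libraries (vertical axis, from 0, scaled per gene), by genotype and treatment (horizontal axis), with the mean and SD of each group of 3 beside the points. Myc is lower in all JQ1 libraries, from 34.5 to 37.9 CPM, than in all DMSO libraries, from 42.2 to 46.7 CPM, while the points of Max overlap between treatments.

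Markers of other cell types moved in the same comparison. Of all tested genes 25.9% rose and 29.3% fell in WT, and 27.7% and 29.4% in KO. Under JQ1, 5 of 8 astrocyte markers fell in WT and 4 of 8 in KO, and none rose. The summed astrocyte level was 569 to 681 CPM in WT in DMSO and 417 to 555 CPM in JQ1, and 388 to 538 and 246 to 412 CPM in KO. No astrocyte marker was at 0 in any group. Of 5 microglia markers tested 3 fell in each genotype, and Tmem119 had no read in WT in JQ1. Of 6 fibroblast and endothelial markers tested 3 fell in each genotype, with medians of -1.01 and -0.98, and the sum over all 7 was 27.9 to 35.7 CPM in WT in DMSO and 15.8 to 20.8 CPM in JQ1, and 12.1 to 16.9 and 8.84 to 11.3 CPM in KO. Of 6 oligodendrocyte markers 2 fell in each genotype, among them the myelin gene Mbp (-1.81 in WT and -2.05 in KO), and 1 rose in WT, while their sum ran from 135 to 197 CPM in DMSO and from 139.7 to 192 CPM in JQ1 over both genotypes. Of the 10 neuron markers 2 rose and 4 fell in each genotype. Of 11 progenitor and cell-cycle markers 2 rose and 1 fell in WT, and 3 rose and 1 fell in KO. In both directions together, 62.5% of the astrocyte markers passed in WT and 50% in KO. For microglia and for neurons the share was 60% in each genotype. It was 50% in each for the fibroblast and endothelial list, 50% and 33.3% for oligodendrocytes and 27.3% and 36.4% for progenitors. Of all genes 55.1% passed in WT and 57.1% in KO, so most of these lists were near or under that. Marker counts were not recomputed under spike-in scaling. The part of these markers in the changes of the network genes was not tested.

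The balance between the genes for MYC factors and those for repressing partners was lower under JQ1. The summed per-length level of Myc, Mycn and Mycl1 divided by that of the 6 repressing partners ran from 1.95 to 2.11 in WT in DMSO and from 1.78 to 1.88 in WT in JQ1. In KO the ratio ran from 2.02 to 2.07 in DMSO and from 1.73 to 1.87 in JQ1. JQ1 and DMSO libraries did not overlap in either genotype, whereas the genotypes overlapped within each treatment. As a ratio within a library this value does not depend on how libraries are scaled to each other, but its size depends on the merged exon lengths used. The share of Myc among the 3 MYC genes ran from 19.2 to 19.3% in WT and from 19.2 to 19.9% in KO under JQ1, below every DMSO library, the lowest of which was at 21.1%.

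Loss of Fmr1 was compared next. In DMSO, Mnt, Mxi1 and Mycl1 rose in KO relative to other genes, and none of the 10 fell. All 3 turned negative under spike-in scaling without passing there (SE 0.306, 0.304 and 0.308, edgeR adjusted p = 0.0667, 0.0769 and 0.0527). Thus 3 of 10 passed with TMM, where 15.0% of all genes did, 7.21% higher and 7.76% lower. In JQ1, Mnt was higher and Mxd4 lower, 2 of 10 where 8.97% of all genes passed, 4.85% higher and 4.13% lower. Without both KO libraries numbered 3 the counts were 3 and 1. With so few members these counts do not set the network apart from the genome, and the median absolute log2 change of the 10 genes, 0.12 in DMSO and in JQ1, was close to that of all genes, 0.13 and 0.12.

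Mnt had the smallest adjusted p of the 10 between the genotypes in DMSO. Its KO libraries there lay within 1 CPM of each other, at 77.6, 77.7 and 76.9 CPM, and above all WT libraries. The log2 change was 0.23 in DMSO (SE 0.0449, interval 0.13 to 0.32, edgeR adjusted p = 0.00632), a rise of 17.0%, and 0.16 in JQ1 (SE 0.0451, interval 0.062 to 0.26, adjusted p = 0.0427). The authors' deposited table of KO against WT lists a log2 change of 0.23 with an adjusted p of 0.000394. The DMSO call held without any 1 library (adjusted p from 0.00833 to 0.0301) but turned to -0.58 under spike-in scaling. The JQ1 call was lost without WT_JQ1 replicate 1, 2 or 3 (adjusted p = 0.117, 0.103 and 0.0874) and without KO_JQ1 replicate 1 or 2 (0.157 and 0.119), and in a fit of those 2 groups alone (0.0968).

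Mxi1, with its KO libraries at 28.0 CPM or above and its WT libraries at 25.3 CPM or below in DMSO, rose by 0.24 (SE 0.0581, interval 0.12 to 0.37, edgeR adjusted p = 0.0153) and was at 0.15 in JQ1 (SE 0.0579, adjusted p = 0.122). The DMSO call was lost without WT_DMSO replicate 1 (adjusted p = 0.0653) or 2 (0.0543), and the value turned to -0.56 under spike-in scaling. Mycl1 rose by 0.18 in DMSO (SE 0.0544, interval 0.064 to 0.30, edgeR adjusted p = 0.0398), with no overlap of libraries, and was at 0.0050 in JQ1 (SE 0.0546, interval -0.11 to 0.12, adjusted p = 0.970). Its DMSO call was lost without any 1 of WT_DMSO replicates 1, 2 and 3 (adjusted p = 0.0517, 0.108 and 0.0980) or KO_DMSO replicates 1 and 2 (0.0785 and 0.107), and it turned to -0.63 under spike-in scaling. The authors' deposited table lists Mxi1 at 0.24 (adjusted p = 0.00402) and Mycl1 at 0.19 (adjusted p = 0.00604), and none of the other 7 network genes besides Mnt under 0.05.

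Mxd4 was at -0.11 in DMSO (SE 0.0465, edgeR adjusted p = 0.115) and fell relative to WT in JQ1 by 0.16 on the log2 scale (SE 0.0466, interval -0.26 to -0.060, adjusted p = 0.0471), with KO libraries below WT libraries in both treatments. The JQ1 call was lost without WT_JQ1 replicate 1, 2 or 3 (adjusted p = 0.121, 0.0508 and 0.104), without KO_JQ1 replicate 1 or 3 (0.150 and 0.0849), without both KO libraries numbered 3 (0.0649), and with size factors in place of TMM (0.0510). Mxd3 was at -0.31 in DMSO (SE 0.168, interval -0.67 to 0.048, edgeR adjusted p = 0.224) and -0.36 in JQ1 (SE 0.169, interval -0.72 to 0.0025, adjusted p = 0.193), the lowest estimates of the 10 in both treatments. Myc, Mycn and Max did not pass between the genotypes, with log2 changes from 0.0074 to 0.054 in DMSO and from -0.029 to 0.077 in JQ1. Mxd1 and Mga did not pass either, at 0.048 and -0.12 in DMSO and -0.083 and -0.17 in JQ1.

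Markers of dividing cells and neurons moved between the genotypes too. With TMM, 7.21% of all tested genes were higher and 7.76% lower in KO in DMSO, and 4.85% and 4.13% in JQ1. Spike-in scaling called 4 of all 15433 genes higher and 11990 lower in DMSO, and 5 higher and 18 lower in JQ1. Marker counts were not recomputed under it, so the rises given here hold with TMM only. Of 11 progenitor and cell-cycle markers 4 fell in KO in DMSO and 4 in JQ1, and none rose. Their summed level was 487 to 530 CPM in WT and 398 to 473 CPM in KO in DMSO, and 478 to 545 and 324 to 419 CPM in JQ1. Of the 10 neuron markers 6 rose in KO in DMSO and 1 in JQ1, and their sum was 5598 to 5611 CPM in WT and 5911 to 6470 CPM in KO in DMSO, and 5420 to 5541 and 5760 to 5954 CPM in JQ1. Of 8 astrocyte markers 2 fell in KO in DMSO and 1 in JQ1, with the sums given above. Of 6 fibroblast and endothelial markers tested 1 rose and 1 fell in DMSO, and the sum over all 7 was 27.9 to 35.7 CPM in WT and 12.1 to 16.9 CPM in KO. Most of that sum was Dcn, whose mean was 28.0 CPM in WT and 10.9 CPM in KO. Col1a1, Col1a2 and Col3a1 had higher means in KO, while Pdgfrb, Pecam1 and Cldn5 had lower ones, all at 1.92 CPM or less. The tested markers centred on 0.42 on the log2 scale (median), so the lower sum reflects Dcn rather than the list. None of these markers was at 0 in any group, and their part in the differences of Mnt, Mxi1, Mycl1 and Mxd4 was not tested.

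**Figure D3:**
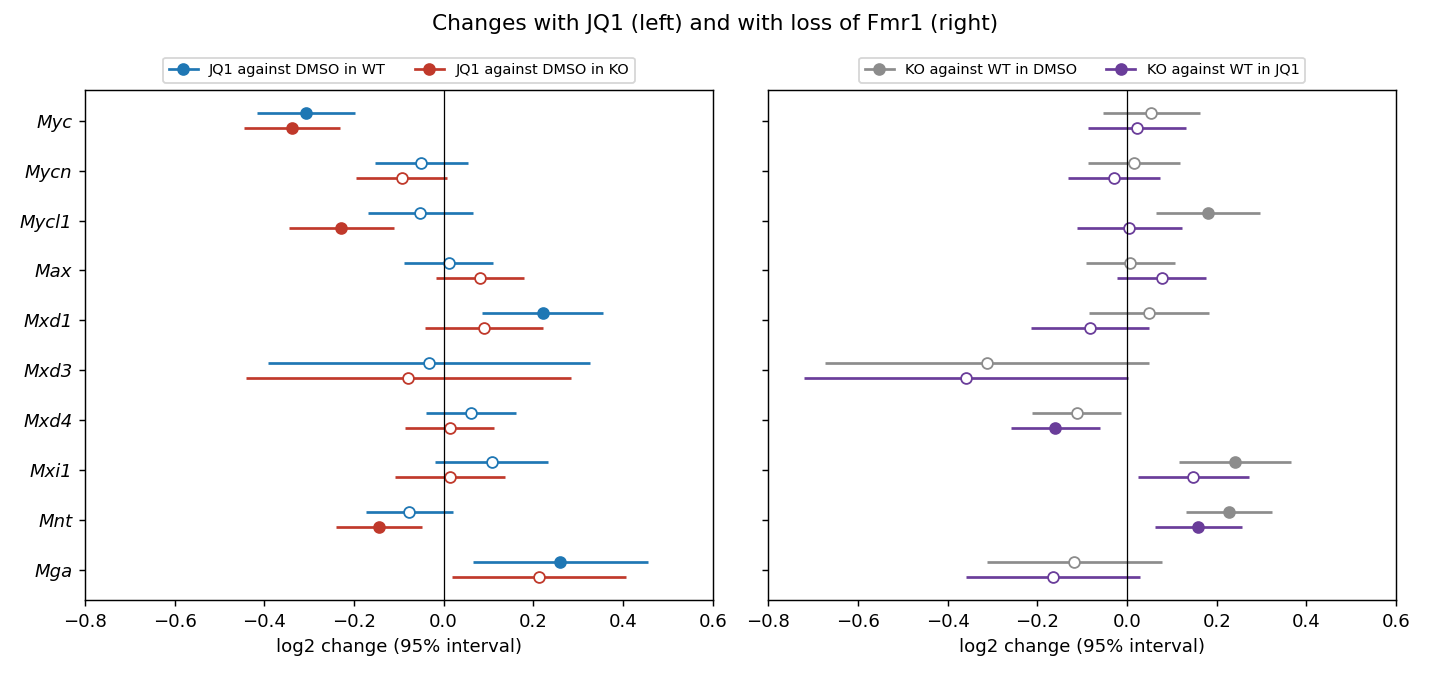
Log2 change of each network gene with its 95% interval (horizontal axis), for JQ1 over DMSO in WT and KO (left) and KO over WT in DMSO and JQ1 (right), with filled points where the edgeR adjusted p was under 0.05. Myc is filled in both genotypes on the left at -0.31 and -0.34, and Mnt in both treatments on the right at 0.23 and 0.16. The DMSO value of Mnt turned to -0.58 under spike-in scaling, where it did not pass.

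Whether the response to JQ1 differed between the genotypes was tested as the difference of the JQ1 changes. None of the 10 network genes passed, and neither did any of the 15433 genes (0% called by edgeR, 355 at an unadjusted p under 0.05; DESeq2 called 0, with 269 under 0.05). For Myc the difference was -0.032 (interval -0.18 to 0.12), for Mycn -0.044 (interval -0.19 to 0.10) and for Max 0.069 (interval -0.071 to 0.21). Mycl1, given above, was the only one of the 10 whose interval left out 0.

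The genes around the network were described from 6 lists. Of all 15433 genes, spike-in scaling called 40 higher and 5814 lower under JQ1 in WT, and 206 higher and 1314 lower in KO. Among 50 genes known to be activated by MYC, 17 rose and 5 fell under JQ1 in WT relative to other genes, with a list median of 0.056 beside -0.0043 for all genes. In KO, 21 rose and 7 fell, with a median of 0.11 beside 0.0014, but under spike-in scaling none rose in either genotype, while 8 fell in WT and 1 in KO. The risers were 34% of the list in WT and 42% in KO, where 25.9% and 27.7% of all genes rose, and those that fell were 10% and 14%, where 29.3% and 29.4% of all genes fell. In both directions together 44% and 56% of the list passed, beside 55.1% and 57.1% of all genes. Those of smallest adjusted p among the risers were Odc1, the first enzyme of polyamine synthesis (0.58 in WT, SE 0.0469, and 0.60 in KO), Ncl, the nucleolar protein nucleolin (0.42, SE 0.0521, and 0.47), and Mybbp1a, a nucleolar Myb-binding protein (0.31, SE 0.0438, and 0.39). Odc1 went from 185 to 195 CPM in WT in DMSO to 280 to 290 CPM in JQ1. Among those that fell, Bcat1, the cytosolic branched-chain aminotransferase, moved by -0.97 in WT (SE 0.0456) and -1.03 in KO, from 103 to 105 CPM in WT in DMSO to 51.4 to 55.9 CPM in JQ1. The cell-cycle phosphatase gene Cdc25a fell by 0.29 in WT and 0.28 in KO, and the folate carrier gene Slc19a1 by 0.36 and 0.45. The edgeR adjusted p of these 6 genes in WT ran from 2.78e-09 for Bcat1 to 0.00470 for Slc19a1. The number that fell in WT was 3 without WT_JQ1 replicate 1 or 3. The E-box occurred in 15 of 50 promoters of this list (30%, from 43 matched genes), beside 7.15% of all promoters. It also occurred in 3 of 13 promoters of the genes known to be repressed by MYC (23.1%, from 9 matched genes) and in 2 of 4 of the MLX arm. The share was nearer that of all promoters for the MYC cofactors (2 of 21, 9.52%), the MXD and MNT corepressors (1 of 18, 5.56%) and the MGA complex (1 of 10, 10%).

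Of 10 genes known to be repressed by MYC, 2 rose and 3 fell in WT and 3 rose and 3 fell in KO, with medians of 0.0062 and 0.099. The 50% and 60% of this list that passed are near the 55.1% and 57.1% of all genes. Those that fell were Cdkn1a, which encodes the cell-cycle inhibitor p21 (-0.96 in WT, SE 0.0798, and -0.99 in KO), and Ndrg1 (-0.93, SE 0.0805, and -0.97) and Ndrg2 (-0.89, SE 0.152, and -0.89), members of the N-myc downstream regulated family. Cdkn1a went from 67.5 to 76.9 CPM in WT in DMSO to 33.9 to 42.6 CPM in JQ1. Gadd45b, a stress-response gene (0.90, SE 0.139, and 0.87), and Cdkn1b, which encodes the inhibitor p27 (0.34, SE 0.0718, and 0.30), rose, though under spike-in scaling no gene of the list rose in either genotype. The edgeR adjusted p of these 5 genes in WT ran from 3.22e-07 for Cdkn1a to 0.00116 for Cdkn1b.

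The list of MXD and MNT corepressors held genes of the SIN3 complex and the corepressor gene Ncor1, and is called the SIN3 list here. Most of its genes that passed the test were higher under JQ1 relative to other genes. In WT 10 of 16 were higher and 1 lower, and in KO 8 were higher and 1 lower, with medians of 0.21 and 0.16. That is 62.5% and 50% of the list higher and 6.25% lower in each genotype, beside 25.9% and 27.7% of all genes higher and 29.3% and 29.4% lower. Under spike-in scaling none was higher in either genotype, 1 was lower in WT and 0 in KO. Sin3a, the scaffold of the complex, went from 38.4 to 38.9 CPM in WT in DMSO to 57.9 to 59.2 CPM in JQ1, a log2 change of 0.60 (SE 0.0453, edgeR adjusted p = 1.25e-07) and 0.64 in KO. Its paralog Sin3b rose by 0.33 and 0.27, and the subunit gene Sap130 by 0.26 and 0.19. Arid4a, a chromatin-binding subunit gene, fell by 0.28 in WT and 0.23 in KO. Of 10 genes of the MGA complex 4 rose and 1 fell in WT and 6 rose and 1 fell in KO, so 40% and 60% were higher and 10% lower, beside the same shares of all genes. Among them Ring1, a Polycomb ubiquitin ligase gene, changed by 0.55 and 0.47, Rybp, its binding partner gene, by 0.34 and 0.39, the repressor gene E2f6 by 0.30 and 0.25 and the MBT-domain gene L3mbtl2 by -0.25 and -0.24. None of the MGA complex genes rose under spike-in scaling in either genotype, and 2 fell in WT.

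Among 18 cofactors and turnover factors of MYC, 6 rose and 5 fell in WT, and 5 rose and 4 fell in KO. The 61.1% and 50% that passed are near the 55.1% and 57.1% of all genes. The kinase gene Pim1 changed by 0.74 in WT (SE 0.110) and 0.58 in KO, the deubiquitinase gene Usp28 by 0.32 and 0.35, and the MYC-binding protein gene Mycbp by 0.44 and 0.56. Ruvbl1, a helicase gene of chromatin complexes, changed by -0.28 and -0.32, the transcription factor gene Tfap4 by -0.38 and -0.53 and Zbtb17, which encodes the MYC partner MIZ1, by -0.25 and -0.35. The number that fell in WT was 1 without WT_DMSO replicate 1 and 3 without WT_JQ1 replicate 2, the number that rose in KO was 3 without KO_DMSO replicate 3, and no gene of the list rose under spike-in scaling, where 6 fell in WT. The parallel MLX arm was represented by Mlx, which rose by 0.16 in WT (adjusted p = 0.0257, lost without WT_DMSO replicate 3) and 0.32 in KO, and by Mlxip at 0.091 and 0.067, while Mlxipl had too few reads to be tested.

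**Figure D4:**
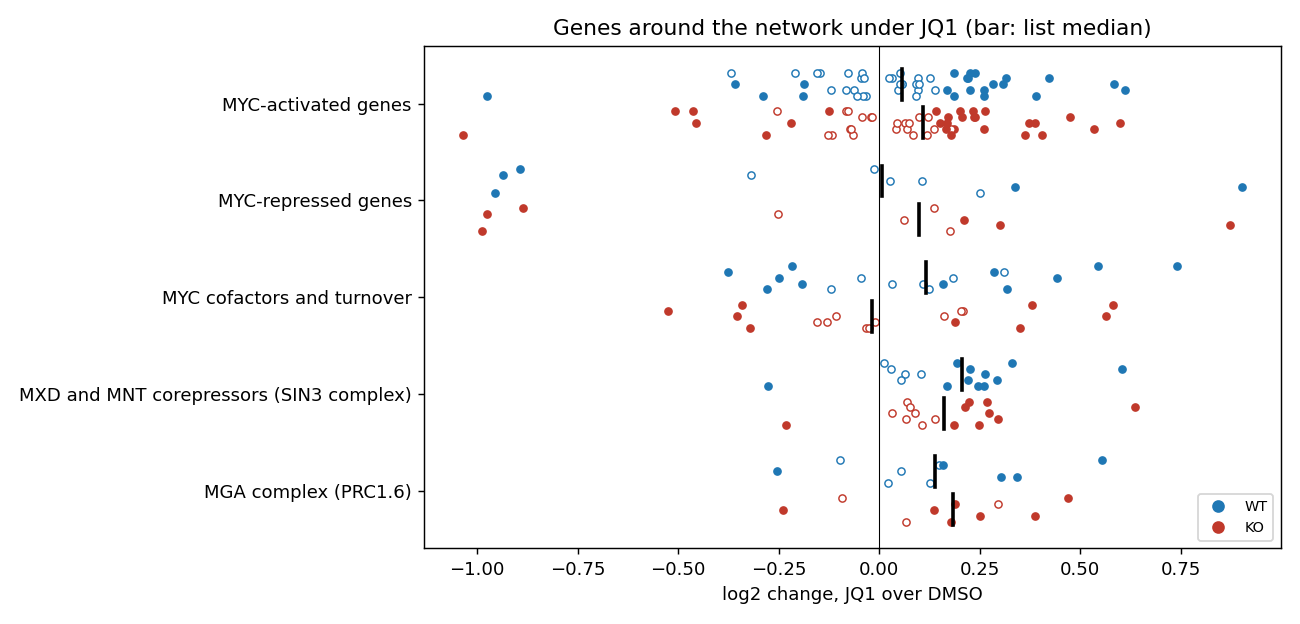
Log2 change under JQ1 (horizontal axis) of each tested gene of 5 lists around the network, WT in blue and KO in red, filled where the edgeR adjusted p was under 0.05, with a bar at each list's median. Genes of the MYC-activated list spread from Bcat1 at -0.97 in WT to Ung at 0.61 around a median of 0.056, and the SIN3 list has a median of 0.21 in WT, although none of its genes rose under spike-in scaling.

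Between the genotypes, spike-in scaling called 77.7% of all genes in DMSO, 11990 lower and 4 higher, and 0.149% in JQ1. The spike-in counts of the lists below are to be read against those values. With TMM, 15.0% of all genes passed in DMSO and 8.97% in JQ1. Of the 50 MYC-activated genes 7 were higher and 3 lower in KO in DMSO, and 7 higher and 1 lower in JQ1, 20% and 16% of the list. Under spike-in scaling none was higher and 45 were lower in DMSO, and none passed in JQ1. The count of higher genes ran from 2 (without WT_DMSO replicate 2) to 10 (without KO_DMSO replicate 3) in DMSO and from 0 (without WT_JQ1 replicate 1 or KO_JQ1 replicate 2) to 8 (without KO_JQ1 replicate 3) in JQ1 when 1 library was left out. In JQ1 the count was 11 by DESeq2, 4 with no filter on low counts and 1 in a fit of the 2 groups alone. Among the 18 cofactors Bin1, which encodes a MYC-interacting adaptor better known in membrane bending, was the only gene called by edgeR in either treatment (5.56% of the list), at 0.35 in DMSO (SE 0.0496, edgeR adjusted p = 0.00125) and 0.28 in JQ1 (adjusted p = 0.00493), and it was chosen after its values were seen. Under spike-in scaling no cofactor was higher in either treatment, so this call was lost, and 13 were lower in DMSO. The count of higher cofactors in DMSO was 2 by DESeq2 and in a fit of the 2 groups alone, 3 with no filter on low counts and 2 without WT_DMSO replicate 3. With the replicate number as a block 1 cofactor was lower in each treatment. Without both KO libraries numbered 3, 1 was lower in DMSO. In the SIN3 list 2 genes were higher and 4 lower in DMSO, and 2 and 2 in JQ1, which is 37.5% and 25% of the list. Under spike-in scaling 14 of the 16 were lower and none higher in DMSO, and none passed in JQ1. The number lower in DMSO was 0 without WT_DMSO replicate 2 or KO_DMSO replicate 1 or 2, 1 without WT_DMSO replicate 1 and 2 without KO_DMSO replicate 3. In JQ1 the number lower was 0 without WT_JQ1 replicate 1 or KO_JQ1 replicate 1 or 2, and the number higher in JQ1 was 0 without WT_JQ1 replicate 1 or 2 or KO_JQ1 replicate 1. Both numbers in JQ1 were 0 in a fit of the 2 groups alone. No MGA complex gene was called in either treatment in the edgeR fit of all 12 libraries with TMM, with 3 in DMSO and 2 in JQ1 at an unadjusted p under 0.05. In DMSO edgeR called 1 lower with no filter, in a fit of the 2 groups alone or with the replicate number as a block. Without both KO libraries numbered 3 it called 2 lower in each treatment. In DMSO, DESeq2 called 1 higher and 1 lower, size factors in edgeR 1 higher, and spike-in scaling 9 of the 10 lower. Leaving out WT_DMSO replicate 2 or KO_DMSO replicate 2 gave 1 higher in DMSO, leaving out KO_DMSO replicate 3 gave 1 lower, and leaving out KO_JQ1 replicate 3 gave 2 lower in JQ1. Of the 10 MYC-repressed genes 1 was lower in DMSO, a call lost without any 1 of WT_DMSO replicates 1, 2 and 3 or KO_DMSO replicates 1 and 2, and none passed by edgeR in JQ1, with 2 at an unadjusted p under 0.05, where DESeq2 called 1 higher. All 10 were lower in DMSO under spike-in scaling. A fit of the 2 groups alone gave 1 higher in DMSO. In JQ1 the replicate number as a block gave 1 higher and 1 lower, and leaving out both KO libraries numbered 3 gave 1 lower.

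Finally, the genes whose levels ran most like those of the MYC genes were sought over the 12 libraries, among the 10620 genes that averaged 5 CPM or more. Unnamed gene models among them were passed over in the ranking. These correlations are a description, since the 12 libraries share 2 treatments and 2 genotypes. Myc ran most like Dhx35, an RNA helicase gene (Pearson r = 0.985), Pgap3 (0.983) and Tspan9, a tetraspanin gene (0.983, JQ1 change -0.66 in WT). Dhx35 changed under JQ1 by -0.68 in WT and -0.73 in KO. Mycn ran most like Yaf2 (0.851), a gene of the MGA complex list, Eef1e1 (0.848) and Fam18b (0.839). Mycl1 ran most like Ube2ql1 (0.935), Foxo6, a forkhead transcription factor gene (0.923), and Tuba1a, a neuronal tubulin gene (0.915). Within the network, Myc ran with Mycl1 (r = 0.771) and against Mxd1 (r = -0.72), and Mnt ran with Mycl1 (r = 0.719) and against Mxd4 (r = -0.74).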

How the data were processed

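RNA from 12 libraries of cultured mouse cortical neurons was analysed as deposited read counts per Ensembl gene. Per the submitters' processing notes, the authors aligned 75 bp single reads with TopHat2 2.1.0 to mm9, handled them with SAMtools 0.1.19 and counted them with HTSeq 0.6.1. No source used here gives the counting mode or strandedness. The authors' deposited table of KO against WT gives the mean signal (a normalised count), log2 fold changes, Wald scores, p-values and adjusted p-values, which were quoted and not used in any test.

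Counts were fitted in R 4.3.3 with edgeR 4.0.16 (filterByExpr at a minimum count of 10, TMM, 1 mean per group over 12 libraries, quasi-likelihood F test, Benjamini-Hochberg over 15433 genes, calls at an adjusted p under 0.05). The 92 ERCC sequences stayed out of library sizes. Per-length levels use merged exons of GENCODE genes on GRCm38, matched by Ensembl ID, and no coordinates of the counts' own build were used. The fit was tested on simulated data with no shift of all genes, so that test does not bear on the scaling.

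The text names all 10 network genes, Fmr1, and from each other list up to 3 genes per direction of smallest adjusted p under JQ1 in WT. A further list is not reported here. Members and lists were chosen with earlier results of these data known. Deviations of libraries with the same number correlated at 0.166 to 0.25 between treatments in KO and at 0.0782 to 0.141 in WT. Between genotypes they correlated at -0.17 to 0.000636 in DMSO and at -0.00585 to 0.125 in JQ1. As every KO pair was over 0.1, these numbers were taken to pair the KO libraries, a pairing from the data and not from the labels. The fit above did not use that pairing, which entered only through the replicate blocks and the removal of both KO libraries numbered 3. Alternatives were size factors, spike-in scaling, DESeq2 1.42.0, no filter, a fit of 2 groups, replicate blocks and leaving out libraries.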

Additional observations from a re-analysis of the deposited data

How the results depend on the processing

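Of 730 recomputed log2 changes of network genes, 641 kept their direction and side of the threshold, 33 lost and 6 gained a call, and 50 changed sign. DESeq2 changed none of its 50, and size factors in edgeR moved only Mxd4 for KO over WT in JQ1, leaving 1 member called there. Spike-in scaling changed most. With it, 1 member was called for JQ1 in WT, where 37.9% of all genes passed, and 0 for JQ1 in KO, where 9.85% did. For KO over WT 7 were called in DMSO, where 77.7% of all genes passed, and 0 in JQ1, where 0.149% did. All 7 were lower in KO, and Mnt, Mxi1 and Mycl1 were not among them. For JQ1 in WT this scaling turned Max to -0.63, Mga to -0.36, Mxd1 to -0.42, Mxd4 to -0.58 and Mxi1 to -0.52. For KO over WT it turned, in DMSO, Max to -0.81, Mnt to -0.58, Mxd1 to -0.76, Mxi1 to -0.56, Myc to -0.76, Mycl1 to -0.63 and Mycn to -0.79, and in JQ1, Max to -0.031, Myc to -0.092 and Mycl1 to -0.11. For the difference of the JQ1 responses it turned Mga to 0.60, Mnt to 0.63, Mxd1 to 0.57, Mxd3 to 0.60, Mxd4 to 0.65, Mxi1 to 0.60, Myc to 0.67, Mycl1 to 0.52 and Mycn to 0.66, with no call. These shifts follow the shift of the median of all genes. No source used here gives the amount of ERCC RNA per library.

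With no filter on low counts, and likewise in a fit of the 2 groups compared, 0 members were called for KO over WT in JQ1, and without the filter Mxd4 for JQ1 in KO was at -0.0010. Without both KO libraries numbered 3, 1 member was called for KO over WT in JQ1, Mxd3 was at 0.042 for JQ1 in KO and 0.074 for the difference, and Mycn at -0.012 for KO over WT in DMSO. The cause was not tested.

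With the replicate number as a block, 3 members were called for JQ1 in WT, 3 for JQ1 in KO, 3 for KO over WT in DMSO and 2 in JQ1, as without it, and Mxd3 for JQ1 in WT was at 0.022. With the block within genotype, 3 were called in WT and 4 in KO, where Mga was added, and Mxd3 in WT was at 0.030. The block changed no other call of a network gene. In WT every library correlated best with its own number, a hint from the data only.

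Leaving out 1 library gave 2 to 3 members called for JQ1 in WT, 2 to 4 for JQ1 in KO, 1 to 3 for KO over WT in DMSO (1 without WT_DMSO replicate 1 or 2), 0 to 1 for KO over WT in JQ1 and none for the genotype difference (0 in all 12 fits). Uncalled values near 0 crossed it: for JQ1 in WT, Max ran from -0.0040 to 0.039 and Mxd3 from -0.16 to 0.19. For JQ1 in KO, Mxd3 ran from -0.21 to 0.084, Mxd4 from -0.029 to 0.035 and Mxi1 from -0.013 to 0.031. For KO over WT, Mga ran from -0.21 to 0.0033 in DMSO, and Myc from -0.023 to 0.049 and Mycl1 from -0.054 to 0.044 in JQ1. For the difference of responses, Mga ran from -0.17 to 0.043 and Mxd3 from -0.28 to 0.11. Mxd3 had the fewest reads of the 10 genes, from 84 to 462 per library.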
